A study of Mus musculus with 15 samples.

Results

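The genes described here are Runx1, Runx2, Runx3 and Cbfb, which encode the RUNX transcription factors and their shared partner CBFβ. They are 4 of 22205 annotated protein-coding genes, and they were taken by name from the mm9 annotation. Each Runx gene had a distal and a proximal start and Cbfb had 1, so that 7 of 29267 annotated starts were examined, each in a window of 3 kb centred on it. The gene bodies were tiled from the distal start in 218 windows of 3 kb, out of 347873 such windows in all protein-coding genes. Runx1 (chr16:92601712-92826311, minus strand, 225 kb) and Runx2 (chr17:44632936-44951576, minus strand, 319 kb) are long genes of 75 and 107 windows, while Runx3 (chr4:134676567-134733905, plus strand, 57.3 kb) and Cbfb (chr8:107694574-107741886, plus strand, 47.3 kb) have 20 and 16. All coordinates are of build mm9.

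ChIP-seq had been performed on C10 cells, which descend from HAFTL, a pre-B cell line of the mouse, and express a C/EBPαER fusion protein together with GFP. Addition of β-estradiol (100 nM in the labels), in the presence of IL-3 and CSF-1 (10 nM), activates the fusion protein, and the cells then take on macrophage features. All 15 libraries came from these cells and carried the same transgene: 5 for H3K4Me1, 5 for H3K27Ac and 5 for H3K27Me3, at 0, 3, 12, 24 and 48 hr post-induction (hpi), with 1 library per mark and time. Control cells received 0.1% ethanol, and the labels do not say whether the 0 hpi libraries came from such cells. With no replicates, no test between times was possible. Intervals below are exact 95% Poisson intervals of a tag count, or exact conditional binomial intervals of a ratio of 2 counts, and both cover counting error only. Since the samples are bulk chromatin, fewer cells carrying a mark and fewer marked histones per cell cannot be told apart.

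RUNX proteins bind DNA through their Runt domain, and CBFβ, which does not bind DNA itself, strengthens that binding and protects RUNX proteins from degradation. Runx1 is required for the emergence of blood stem cells and works with PU.1 and C/EBPα in the myeloid lineage, Runx2 is the main regulator of bone formation, and Runx3 acts in T cells and sensory neurons. A distal and a proximal promoter, which differ in the amino terminus they give the protein, are a shared feature of the RUNX family. H3K4Me1 marks enhancers and the flanks of promoters, H3K27Ac marks active enhancers and promoters, and H3K27Me3 is the mark of Polycomb repression.

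Deposited libraries held 11041458 to 31557475 tags. After reduction to 1 tag per position and thinning within each mark, every H3K4Me1 library counted 10913733 tags, every H3K27Ac library 15216488 and every H3K27Me3 library 15338280. The H3K27Ac libraries of 0 and 3 hpi stood apart from the other 13 in a segment of 90 kb on chromosome 12, where they held 523 and 438 tags and the others 0 to 4. Changes of H3K27Ac from 0 hpi rest on the first of these libraries and could not be computed without it. The bearing of this segment on the values below was not tested. The share of H3K27Ac tags in enriched windows also differed between libraries, from 65.4% at 3 hpi to 80.3% at 24 hpi, and that of H3K4Me1 from 61% at 0 hpi to 73.7% at 48 hpi, with 73.9% at 24 hpi. As for the labelled cell types, H3K27Ac fell at least 2-fold at 10 of 10 starts of B lineage genes and rose at least 2-fold at 10 of 10 starts of macrophage genes between 0 and 48 hpi (8 and 10 with libraries scaled to bins that kept enrichment at each time).

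The promoter sequences are shown first because the starts fall into contrasting kinds. Near the 3 distal starts of the Runx genes lay an identical stretch of 18 bases that holds 2 matches to the RUNX letters TGTGGT, read here on the other strand. It is printed with its neighbouring bases, 30 in all, from the mm9 genome on the strand of each gene, with the shared stretch in capitals.
Runx1 distal, chr16:92826270-92826299: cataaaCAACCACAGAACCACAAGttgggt
Runx2 distal, chr17:44951532-44951561: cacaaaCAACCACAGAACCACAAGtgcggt
Runx3 distal, chr4:134676418-134676447: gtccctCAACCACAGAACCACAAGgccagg
The stretch began 18 bases after the annotated start of Runx1 and 21 bases after that of Runx2, within their first annotated exons, and 143 bases before that of Runx3. At Runx2 the stretch lies in annotated coding sequence, which begins at the annotated distal start itself, so that transcription may start farther upstream and the bases before it that were searched here may not be its promoter. Of 29267 starts searched over 300 bases on either side and on both strands, 3 held these 18 bases, namely these 3. The search was made after the sequences had been seen. A match is a description of letters and not a measured site.

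The proximal starts of Runx1 and Runx3 and the Cbfb start lay in sequence rich in CpG. The 250 bases before the start are printed for both promoters of Runx1, whose H3K27Ac took different courses, on the strand of the gene, with each CpG in capitals.
Runx1 distal, chr16:92826312-92826561: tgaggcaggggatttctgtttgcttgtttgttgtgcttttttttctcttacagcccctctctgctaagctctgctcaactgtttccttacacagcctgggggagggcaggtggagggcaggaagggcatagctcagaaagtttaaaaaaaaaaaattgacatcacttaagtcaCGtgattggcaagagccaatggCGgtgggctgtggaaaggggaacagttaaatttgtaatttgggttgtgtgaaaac
Runx1 proximal, chr16:92697574-92697823: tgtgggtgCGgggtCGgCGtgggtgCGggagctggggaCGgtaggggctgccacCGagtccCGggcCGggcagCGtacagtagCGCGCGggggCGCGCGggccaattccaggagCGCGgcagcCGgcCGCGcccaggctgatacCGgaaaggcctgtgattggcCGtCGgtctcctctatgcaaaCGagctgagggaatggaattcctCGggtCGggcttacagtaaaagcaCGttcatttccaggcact
These promoters held 2 and 27 CpGs. The ratio of observed to expected CpG was 0.165 at the Runx1 distal promoter and 0.993 at the Runx1 proximal promoter, against a median of 0.399 over 29261 promoters. It was 1 for Cbfb and 0.914 for Runx3 proximal, while Runx2 distal held 0 CpGs and Runx3 distal had a ratio of 0.278. In these 250 bases, the RUNX letters occurred 1 time at Runx2 distal and 2 times at Runx3 distal, letters for C/EBP (TTGCNNAA) 1 time, at Runx2 distal, and letters for PU.1 (GAGGAAGT), AP-1 (TGANTCA) and EBF1 (CCCNNGGGA) did not occur at any of the 6 starts whose promoter sequence was examined. Over all promoters, 9.24% held the C/EBP letters, 2.24% the PU.1 letters, 6.31% the AP-1 letters, 5.9% the EBF1 letters and 13.5% the RUNX letters, on either strand.

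At the distal start of Runx1, H3K27Ac fell late. The window (start at position 92826311 of chromosome 16, minus strand) held 924, 911, 797, 709 and 243 tags at 0, 3, 12, 24 and 48 hpi, the order of times in which all series of 5 counts are given. Each count was lower than the one before, and that of 48 hpi was by far the lowest. The log2 change from 0 to 48 hpi was -1.91, computed as for all changes below with 5 tags added to each count, and the interval of the count ratio ran from -2.14 to -1.72. By 24 hpi, 31.6% of the difference had been reached, a log2 change of -0.38, which was 0.29 when libraries were scaled by bins without enrichment. At 0 hpi the level was 50.5-fold over the mean of 831369 mappable windows of the genome and higher than at 98.9% of all starts, and at 48 hpi it was 13.3-fold and higher than at 80.9%. H3K4Me1 at this start was 107, 120, 88, 87 and 76 tags, a log2 change of -0.47 (interval -0.94 to -0.056), which turned to 0.09 when libraries were scaled by bins without enrichment.

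At the proximal start of Runx1 (92697573, 129 kb downstream), H3K27Ac was highest at 3 hpi. The counts were 536, 1197, 715, 880 and 587. The 3 hpi library exceeded the first and the last by 2-fold or more, by 1.15 on the log2 scale over 0 hpi (interval 1.01 to 1.31) and by 1.02 over 48 hpi. An enriched peak of that size over both ends, at 3, 12 or 24 hpi, was found at 0.981% of all starts. When libraries were scaled by bins without enrichment, the rise at 3 hpi was 0.84 and thus under 2-fold, and the highest change was 1.38 at 24 hpi. Scaled to bins that kept enrichment at each time, the changes from 0 hpi were 1.28 at 3 hpi and 0.49 at 48 hpi. The excess of 3 hpi over 48 hpi was then under 2-fold. The change from 0 to 48 hpi was 0.13 (interval -0.04 to 0.30). At 48 hpi the proximal start held 587 tags against 243 at the distal start, whereas at 0 hpi the distal start had been the higher. The intervals of the 2 starts did not overlap at either time.

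**Figure D1:**
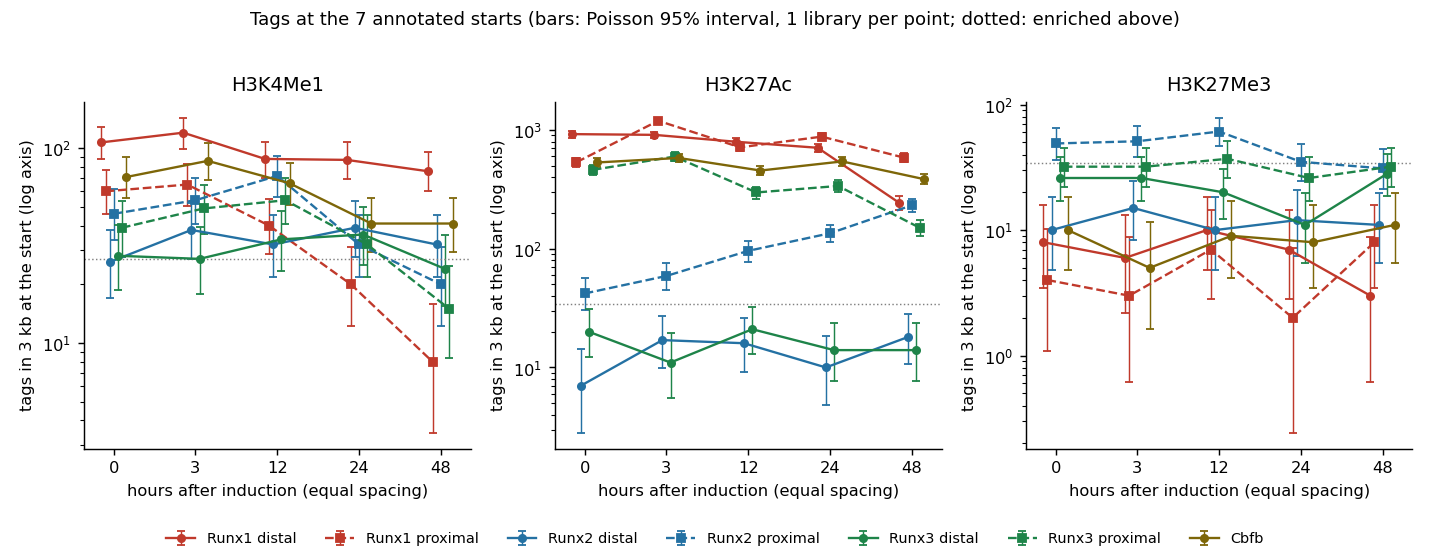
Tags in 3 kb (log axis) at the 7 starts for the 3 marks, by hours after induction on an equally spaced axis. Points are single libraries at equal depth within a mark, bars are Poisson 95% intervals and dotted lines mark the count needed for enrichment. H3K27Ac fell at the Runx1 distal start from 709 to 243 tags between 24 and 48 hpi and rose at the Runx2 proximal start from 42 to 232 over the course.

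Runx2 gained H3K27Ac at its proximal start (44873597 of chromosome 17, minus strand). The counts were 42, 59, 96, 135 and 232 tags at the 5 times, each higher than the one before. The log2 change was 2.33 (interval 1.99 to 2.98), and 48.9% of the gain had been reached at 24 hpi. Scaling by bins without enrichment gave log2 changes of 2.23 at 24 hpi and 2.36 at 48 hpi, against 1.57 and 2.33 at equal depth. The distal start of Runx2 (44951576) stayed below the 34 tags needed for enrichment at all 5 times, with 7, 17, 16, 10 and 18 tags. Its log2 change of 0.94 (interval 0.035 to 2.86) was short of 2-fold and passed it under 4 alternative settings, at a level of 0.983-fold of the genome mean at 48 hpi. In a list of 5 marker genes of bone, the tissue known for Runx2, 0 rose and 1 fell at least 2-fold in H3K27Ac, against 7.48% and 8.95% of all starts, namely Alpl, the tissue-nonspecific alkaline phosphatase, from 601 to 76 tags. In H3K4Me1, 1 of the 5 rose (Ibsp, bone sialoprotein, from 3 to 14 tags, both below enrichment), against 4.72% of all starts.

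At the proximal start of Runx3 (134708411 of chromosome 4, plus strand), H3K27Ac fell. The window held 462, 598, 298, 338 and 150 tags. The level was highest at 3 hpi and lowest at 48 hpi, and the log2 change over the course was -1.59 (interval -1.90 to -1.35). With scaling by bins without enrichment the level was highest at 24 hpi, where the change from 0 hpi was 0.22 in place of -0.45, and the change at 48 hpi was -1.57. The distal start of Runx3 (134676567), 31.8 kb upstream, was not enriched at any time, with 20, 11, 21, 14 and 14 tags. Of 7 T lineage genes, 1 was enriched for H3K27Ac at its start at 0 hpi and 1 at 48 hpi, and 0 rose or fell at least 2-fold, against 7.48% and 8.95% of all starts. In H3K4Me1, 0 of the 7 rose and 3 fell, against 4.72% and 10%. The 3 falls were at Cd4 (15 to 3 tags), Cd8a (9 to 2) and Cd247 (24 to 8), all below enrichment at both times.

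Cbfb (start 107694574 of chromosome 8, plus strand) kept a high level. H3K27Ac counts were 533, 582, 456, 544 and 386 at the 5 times. The log2 change of -0.46 (interval -0.66 to -0.27) was under 2-fold, and the level remained above that of 91% of all starts at 48 hpi. H3K4Me1 at this start went from 71 to 41 tags, a log2 change of -0.72 (interval -1.38 to -0.22), which was -0.19 when libraries were scaled by bins without enrichment and 0 in a window of 2 kb.

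In H3K27Ac, 1 of the 7 starts rose at least 2-fold (Runx2 proximal), where 7.48% of all starts did, and 2 fell (Runx1 distal and Runx3 proximal), where 8.95% did. The median over all starts was -0.089. At the 4 remaining starts the change was smaller than 2-fold, and 2 of these, the distal starts of Runx2 and Runx3, carried no enrichment.

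**Figure D2:**
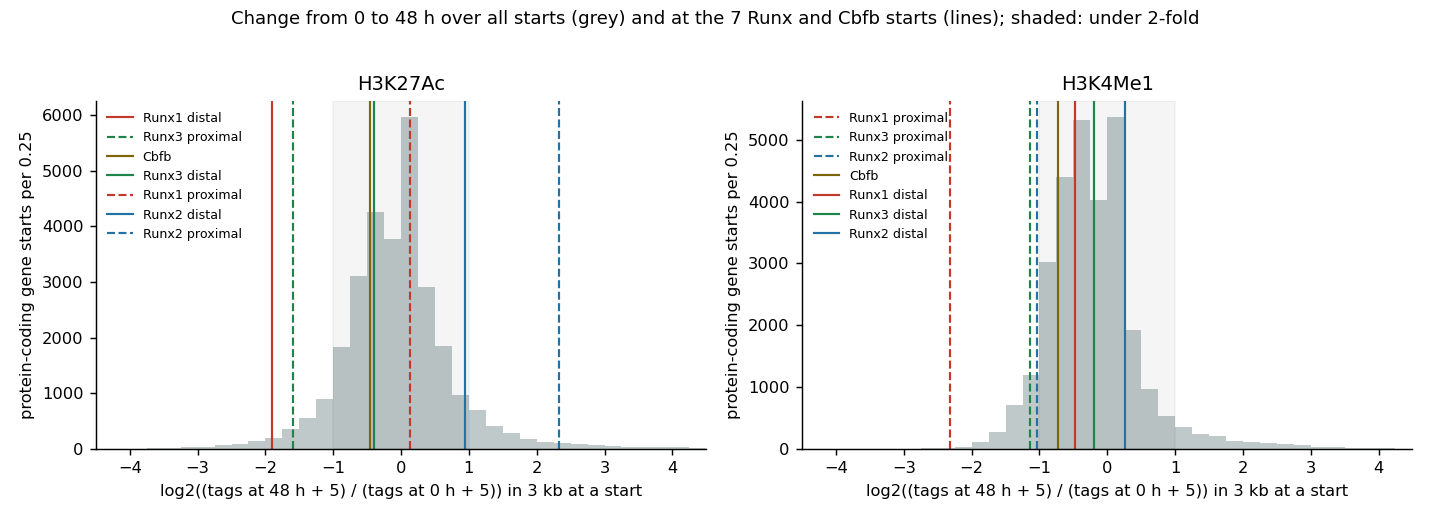
Log2 change of tags in 3 kb from 0 to 48 hpi, with 5 tags added, for H3K27Ac and H3K4Me1. Grey bars count all 29267 starts per step of 0.25, lines mark the 7 Runx and Cbfb starts (dashed: proximal) and the shaded band is under 2-fold. Runx2 proximal lies at 2.33 and Runx1 distal at -1.91 in H3K27Ac, and Runx1 proximal at -2.32 in H3K4Me1.

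The order of H3K27Ac levels changed over the course. At 0 hpi the order from the highest was Runx1 distal (50.5-fold of the mean window), Runx1 proximal (29.3), Cbfb (29.1), Runx3 proximal (25.2), Runx2 proximal (2.29), Runx3 distal (1.09) and Runx2 distal (0.382). Of neighbours in that order, Runx1 proximal and Cbfb did not differ beyond counting error (interval of their log2 ratio -0.17 to 0.18). The ratio intervals of all other neighbours excluded equal counts, by the least for Cbfb over Runx3 proximal (0.024 to 0.39), although for that pair and among the last 3 the intervals of the single counts overlapped. At 48 hpi Runx1 proximal led (32.1), before Cbfb (21.1), Runx1 distal (13.3), Runx2 proximal (12.7) and Runx3 proximal (8.2). Of these, only the neighbours Runx1 distal and Runx2 proximal did not differ beyond counting error (-0.20 to 0.33). The order in H3K4Me1 at 0 hpi was less spread, from 107 tags at Runx1 distal to 26 at Runx2 distal, and only the first 2 neighbours, Runx1 distal and Cbfb, differed beyond counting error (ratio interval 0.15 to 1.05).

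H3K4Me1 fell at least 2-fold in the 3 kb of all 3 proximal starts, while 10% of all starts fell. No member start rose, against 4.72% of all starts. Runx1 proximal held 60, 65, 40, 20 and 8 tags (log2 change -2.32, interval -4.18 to -1.84). Runx2 proximal held 46, 54, 72, 32 and 20 tags (-1.03, interval -2.04 to -0.42), with its highest value at 12 hpi. Runx3 proximal held 39, 49, 54, 32 and 15 tags (-1.14, interval -2.34 to -0.49), also highest at 12 hpi. In the flanks, with both sides summed, no fall beyond counting error was seen at these 3 starts. Summed over the 1.5 kb on each side of the window, H3K4Me1 went from 115 to 100 tags at Runx1 proximal, from 34 to 38 at Runx2 proximal and from 111 to 106 at Runx3 proximal. The flank changes were -0.19 (interval -0.60 to 0.20), 0.14 (interval -0.55 to 0.87) and -0.064 (interval -0.46 to 0.33), and the flanks were examined after the data had been seen. At Runx1 proximal the sum hides a difference between the sides. Downstream, the fall ran on into the flank, where the 1 kb bins at 130 and 131 kb from the distal start fell from 45 to 11 and from 21 to 6 tags. Upstream, the bin at 126 kb rose from 45 to 63. Only the fall at Runx1 proximal stayed past 2-fold when libraries were scaled by bins without enrichment, which put the 3 proximal starts at -1.93, -0.54 and -0.68, or left unthinned, which put Runx2 and Runx3 proximal at -0.99 each. Among all starts, 3.84% fell under the first and 8.48% under the second. In a window of 2 kb Runx3 proximal was at -0.72. In a window of 6 kb none of the 3 reached 2-fold. The distal starts changed less, with log2 changes of 0.26 at Runx2 (26 to 32 tags) and -0.19 at Runx3 (28 to 24 tags).

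H3K27Me3 was low at most starts. Runx2 proximal held 49, 51, 61, 35 and 31 tags, which was enriched at the first 4 times and a level higher than at 93.4% of all starts at 0 hpi. Its log2 change of -0.58 (interval -1.36 to 0.017) was within counting error. Runx3 proximal held 32, 32, 37, 26 and 32 tags, close to the enrichment limit of 34, and Runx3 distal 26, 26, 20, 11 and 28. The starts of Runx1 and Cbfb held between 2 and 11 tags at every time. Of the 7 starts, 0 rose and 0 fell at least 2-fold in this mark, against 1.58% and 1.99% of all starts. In the 3 kb at Runx2 proximal, H3K27Ac and H3K27Me3 were thus both enriched at 0, 3, 12 and 24 hpi. The 2 marks were highest in different 1 kb bins around this start. At 0 hpi the bin at 78 kb from the distal start held 32 tags of H3K27Ac and 4 of H3K27Me3. The bins at 76 and 77 kb held 2 and 5 of H3K27Ac, and 28 and 21 of H3K27Me3. The bin at 76 kb lies only partly within the 3 kb.

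The body of Runx1 gained H3K27Ac over most of its length. Of its 75 windows, 38, 44, 64, 66 and 70 were enriched at the 5 times, while the share of all body windows that were enriched went from 10.2% at 0 hpi to 16.1% at 48 hpi. Among the 70 windows enriched at 0 or 48 hpi, 41 rose at least 2-fold (58.6%) and 4 fell (5.71%), where 39.5% and 15.4% of all such body windows did. H3K4Me1 rose in 31 and fell in 1 of 68 windows, against 28% and 10.9% of all. Over the bodies of the 4 genes, 72 of 124 windows rose in H3K27Ac and 7 fell, and 57 of 139 rose in H3K4Me1 and 4 fell. In 27 of the 41 windows that gained H3K27Ac, H3K4Me1 rose as well, as in 60.4% of all 24334 body windows that gained H3K27Ac. Before induction, 25 of the 41 were already enriched for H3K4Me1 and 15 for H3K27Ac, against 39.5% and 15.2% of all such windows. Among all 75 windows of Runx1, 53 and 38 were enriched for these marks at 0 hpi, so that the rising windows were marked less often than the gene as a whole. Of the 41, 8 were at least 2-fold up at 3 hpi, against 31 at 12 hpi and 40 at 24 hpi, and of all such windows 18.1%, 46.7% and 65.3% were.

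The gain was greatest in the last part of the gene. Between the starts, from 0 to 126 kb, tags went from 5235 to 7089 (log2 ratio 0.44) by way of 10342 at 24 hpi, and after the proximal start, from 129 to 225 kb, from 1633 to 6909 (2.08). A run of 13 windows from 183 to 222 kb after the distal start held 492, 475, 1983, 3301 and 4803 tags. Its largest rise was in the intronic window at 213 to 216 kb (chr16:92610312-92613311), which held 21, 48, 188, 426 and 829 tags, a log2 change of 5.00 (lower bound of the interval 4.68), and H3K4Me1 there went from 14 to 351 tags (4.23). The neighbouring windows at 216 to 219 kb and 210 to 213 kb came next, with 34 to 640 and 33 to 576 tags of H3K27Ac. The transcript Gm16801 is annotated in the windows from 210 to 216 kb. The 300 bases with the most H3K27Ac tags in the leading window, 4 at 0 hpi and 153 at 48 hpi, lay outside exons and are printed to show where the largest gain was.
Runx1 intron, chr16:92612412-92612711: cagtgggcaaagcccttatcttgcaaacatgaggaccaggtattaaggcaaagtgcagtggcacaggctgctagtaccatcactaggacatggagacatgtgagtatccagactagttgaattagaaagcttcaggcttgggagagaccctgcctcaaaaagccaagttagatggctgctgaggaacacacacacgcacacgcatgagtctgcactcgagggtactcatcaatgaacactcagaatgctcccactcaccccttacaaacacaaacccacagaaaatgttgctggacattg
They held 0 matches to the RUNX, C/EBP, PU.1, AP-1 or EBF1 letters. Among 61592 stretches of 300 bases at the centres of enriched body windows, 22.8% held the RUNX letters and 11.5% the C/EBP letters. A second run of 10 windows, from 132 to 162 kb, rose from 223 to 1075 tags.

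**Figure D3:**
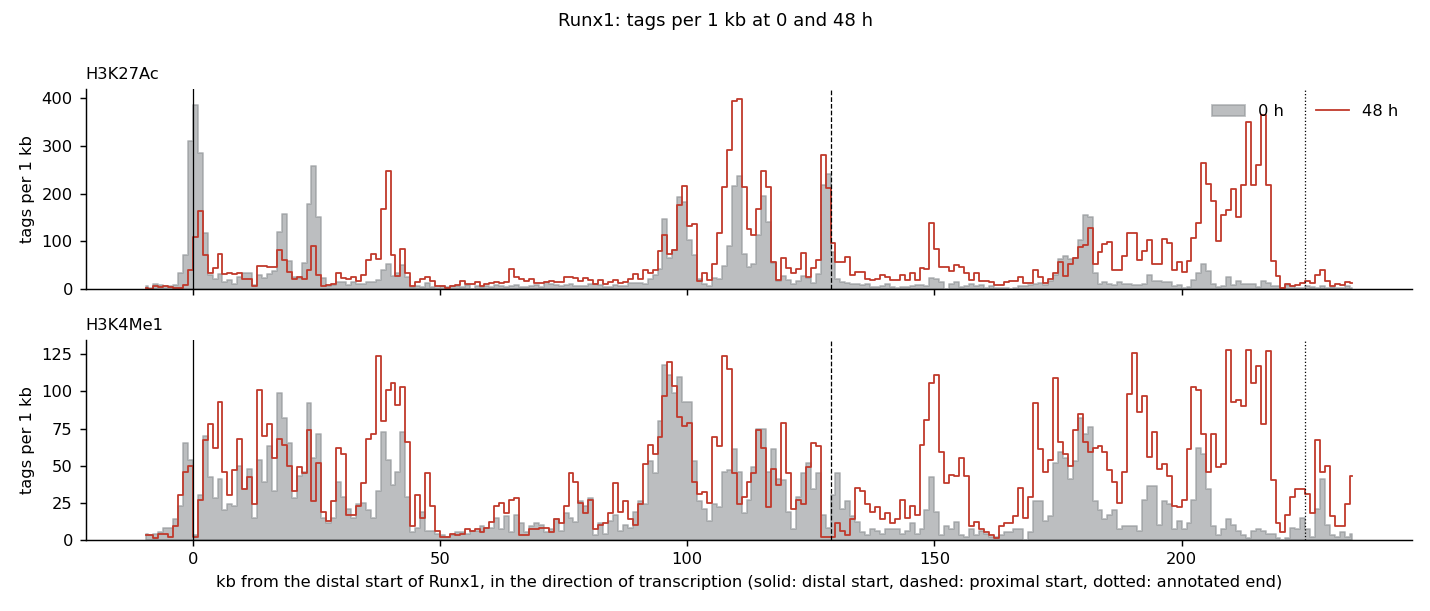
Tags per 1 kb over Runx1 at 0 hpi (grey) and 48 hpi (line) for H3K27Ac and H3K4Me1, by distance from the distal start in the direction of transcription. Solid, dashed and dotted lines mark the distal start, the proximal start and the annotated end. The block from 183 to 222 kb held 492 H3K27Ac tags at 0 hpi and 4803 at 48 hpi, and the block from 18 to 27 kb 923 and 325.

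The Runx1 windows that fell in H3K27Ac all lay in its first 27 kb. The intronic windows at 18 to 27 kb held 923, 1034, 981, 862 and 325 tags at the 5 times, so that most of the fall came after 24 hpi. The largest fall was in the window at 24 to 27 kb (431 to 125 tags, log2 change -1.75, interval -2.08 to -1.50). The window at 21 to 24 kb went from 254 to 85 tags and that at 0 to 3 kb from 790 to 343. None of the 4 falling windows was 2-fold down at 24 hpi, where 72.7% of all falling body windows were, and H3K4Me1 was not called in any of the 4, where it was in 33.1%. Scaled to bins that kept enrichment at each time, the window at 0 to 3 kb was at -0.83 and 2 Runx1 windows fell. The largest fall of H3K4Me1 in Runx1 was just after the proximal start, at 129 to 132 kb, from 96 to 19 tags (-2.07).

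Between the starts, some Runx1 windows held more H3K27Ac in the middle of the course than at its ends. The share of all body windows with such a course is not given here. H3K27Ac in the window at 96 to 99 kb, which had the most H3K4Me1 of the gene at 0 hpi (320 tags), was 338, 707, 573, 509 and 329 tags. Its rise at 3 hpi of 1.05 was 0.74 when libraries were scaled by bins without enrichment. The excess over 48 hpi was 0.76 under that scaling and 0.86 when scaled to bins that kept enrichment at each time, both under 2-fold. The window at 27 to 30 kb held 28, 129, 84, 109 and 49 tags, a rise at 3 hpi of 2.02. With scaling by bins without enrichment that rise was 1.72 and the excess over 48 hpi was 0.99. The highest H3K27Ac window at 48 hpi, at 108 to 111 kb, went from 542 to 960 tags within 3 hpi and stood at 1084 at 48 hpi, a log2 change of 0.99 (interval 0.85 to 1.15), just short of 2-fold.

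In Runx2, H3K27Ac came up within a region that carried little of it before induction. Of 107 windows, 11, 7, 17, 23 and 34 were enriched at the 5 times. Among the 34 enriched at 0 or 48 hpi, 25 rose (73.5%) and 1 fell (2.94%), against 39.5% and 15.4% of all such body windows. Of the 25 rising windows, 4 were enriched for H3K27Ac at 0 hpi, 16 for H3K4Me1 and 10 for H3K27Me3, and 10 were 2-fold up at 12 hpi. Of all body windows that gained H3K27Ac, 15.2%, 39.5% and 6.08% were enriched for these marks and 46.7% were 2-fold up. Among all 107 windows of Runx2, 11, 32 and 49 were enriched for these marks at 0 hpi. H3K4Me1 rose in 22 and fell in 2 of 49 windows, against 28% and 10.9% of all.

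The largest gains lay from 90 to 108 kb, downstream of the proximal start at 78 kb. There, 6 windows together held 31, 49, 406, 872 and 1424 tags. The intronic window at 102 to 105 kb (chr17:44846577-44849576) led with 7, 16, 162, 388 and 583 tags (log2 change 5.61, interval 5.33 to 7.70). H3K4Me1 in the same window was 4, 19, 124, 232 and 261 tags (4.89). The transcript 9530072K05Rik is annotated in this window. The windows at 93 to 96 kb and 105 to 108 kb followed with 3 to 232 and 4 to 222 tags. The 300 bases with the most H3K27Ac tags of the leading window, 1 at 0 hpi and 142 at 48 hpi, hold 1 match to the RUNX letters, in capitals, and none to the other letters.
Runx2 intron, chr17:44847477-44847776: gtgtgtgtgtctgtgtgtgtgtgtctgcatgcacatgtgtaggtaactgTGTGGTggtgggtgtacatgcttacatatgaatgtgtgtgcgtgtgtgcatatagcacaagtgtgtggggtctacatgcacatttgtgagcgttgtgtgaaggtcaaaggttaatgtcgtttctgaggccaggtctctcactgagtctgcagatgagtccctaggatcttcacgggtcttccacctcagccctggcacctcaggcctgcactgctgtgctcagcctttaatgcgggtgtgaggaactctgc
Further downstream, 5 windows from 150 to 165 kb rose from 282 to 1446 tags, and the window at 159 to 162 kb, which was already enriched, went from 203 to 1037 (log2 change 2.32, interval 2.13 to 2.58) and was the highest of the gene at 48 hpi. The 1 falling window, at 141 to 144 kb, went from 204 to 91 tags (-1.12, interval -1.54 to -0.80) and was at -0.78 when scaled to bins that kept enrichment at each time. The highest window at 0 hpi, at 36 to 39 kb, holds the start of Supt3h, a gene for a subunit of the SAGA complex that overlaps Runx2, and went from 307 to 254 tags.

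**Figure D4:**
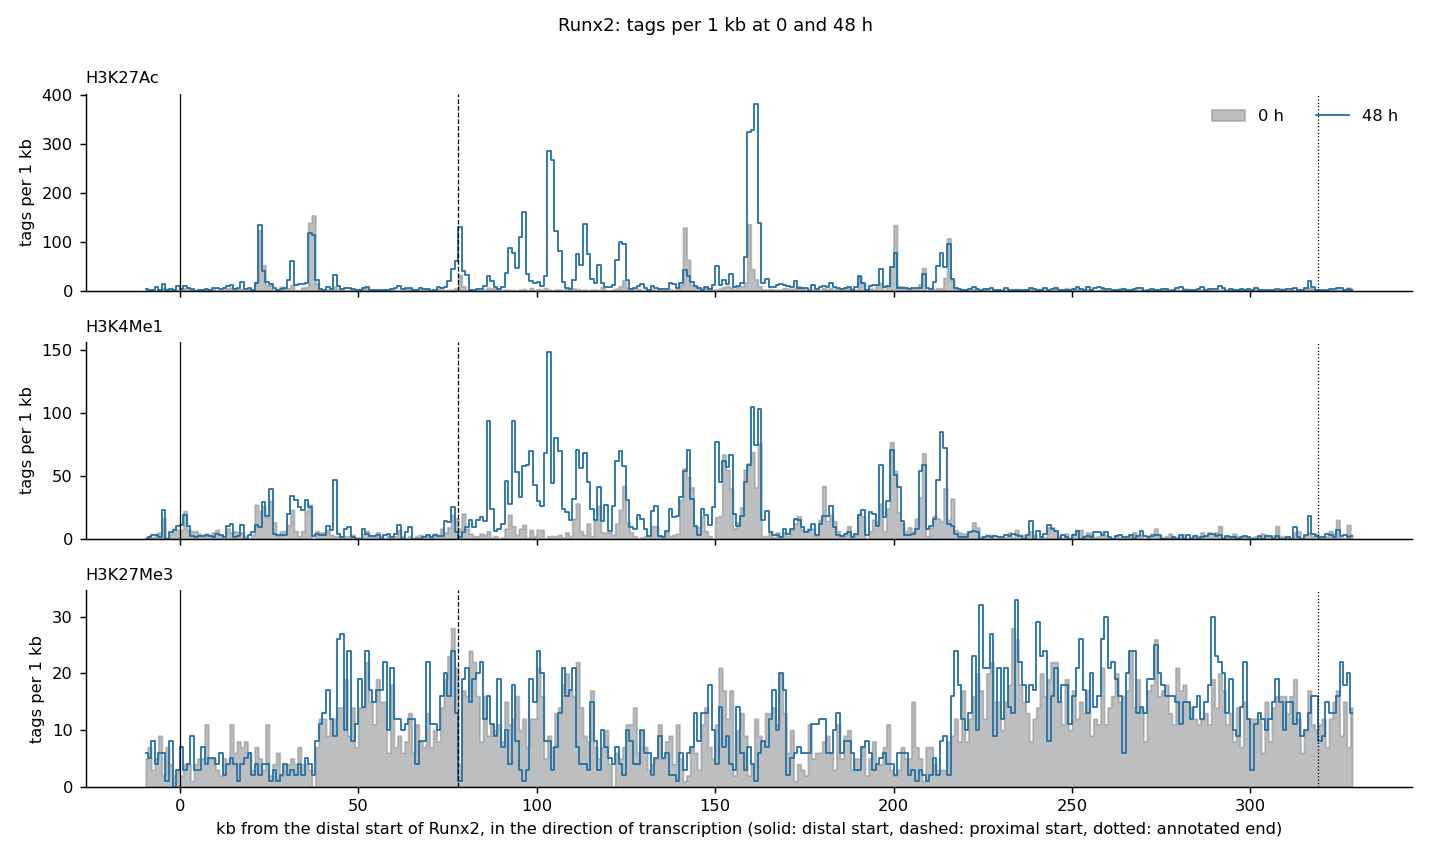
Tags per 1 kb over Runx2 at 0 hpi (grey) and 48 hpi (line) for the 3 marks, by distance from the distal start, with vertical lines as for Runx1. H3K27Ac from 90 to 108 kb rose from 31 to 1424 tags, and H3K27Me3 over the whole gene was 3466 tags at 0 hpi and 3604 at 48 hpi.

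Runx2 carried the most H3K27Me3 per window of the 4 genes, 1.76-fold of the genome mean at 0 hpi against 1.39 in Runx3, 0.512 in Cbfb and 0.413 in Runx1. Over its body, 49 of 107 windows were enriched at 0 hpi and 56 at 48 hpi, against 13.5% and 14.5% of all body windows. The summed tags of 3466, 3441, 3480, 3513 and 3604 differed by a log2 ratio of 0.056 from end to end (interval -0.011 to 0.12). Among the 62 windows enriched at 0 or 48 hpi, 0 rose and 1 fell at least 2-fold, where 2.24% and 0.664% of all such windows did. That window, at 111 to 114 kb, went from 45 to 15 tags (-1.32, interval -2.53 to -0.71), and lies in a run of 5 windows from 111 to 126 kb in which H3K27Ac rose from 60 to 753 tags. Of the 25 windows that gained H3K27Ac, 7 were enriched for H3K27Me3 at 48 hpi, against 6.41% of all such windows and 56 of the 107 windows of Runx2. The highest window for H3K27Me3 at 0 hpi was the one that holds the proximal start, at 75 to 78 kb (72, 80, 87, 47 and 53 tags), in which H3K27Ac rose from 8 to 125 tags.

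In Runx3, windows that fell and windows that rose in H3K27Ac lay side by side. Of its 20 windows, 7 were enriched for H3K27Ac at 0 hpi and 11 at 48 hpi, and of 12 enriched at either time 4 rose (33.3%) and 2 fell (16.7%), shares close to the 39.5% and 15.4% of all such body windows. The falling windows were those at and after the proximal start, from 30 to 36 kb, with 558, 713, 412, 460 and 204 tags, and scaled to bins that kept enrichment at each time 1 of them fell, the other being at -0.85. The adjoining windows from 36 to 42 kb rose, with 208, 131, 257, 521 and 449 tags. The window at 39 to 42 kb, in an intron, was the highest of the gene at 48 hpi and held 133, 85, 173, 339 and 294 tags (log2 change 1.12, interval 0.84 to 1.45). The largest rise was at 45 to 48 kb, from 23 to 59 tags (1.19, interval 0.64 to 2.12). H3K27Me3 lay before and at the proximal start. Of the 10 windows between the starts, 6 were enriched at 0 hpi and 7 at 48 hpi, against 13.5% and 14.5% of all body windows. The window at the proximal start was enriched at both times, and 0 of the 9 windows after it were at either time. The summed body tags of this mark went from 514 to 538.

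**Figure D5:**
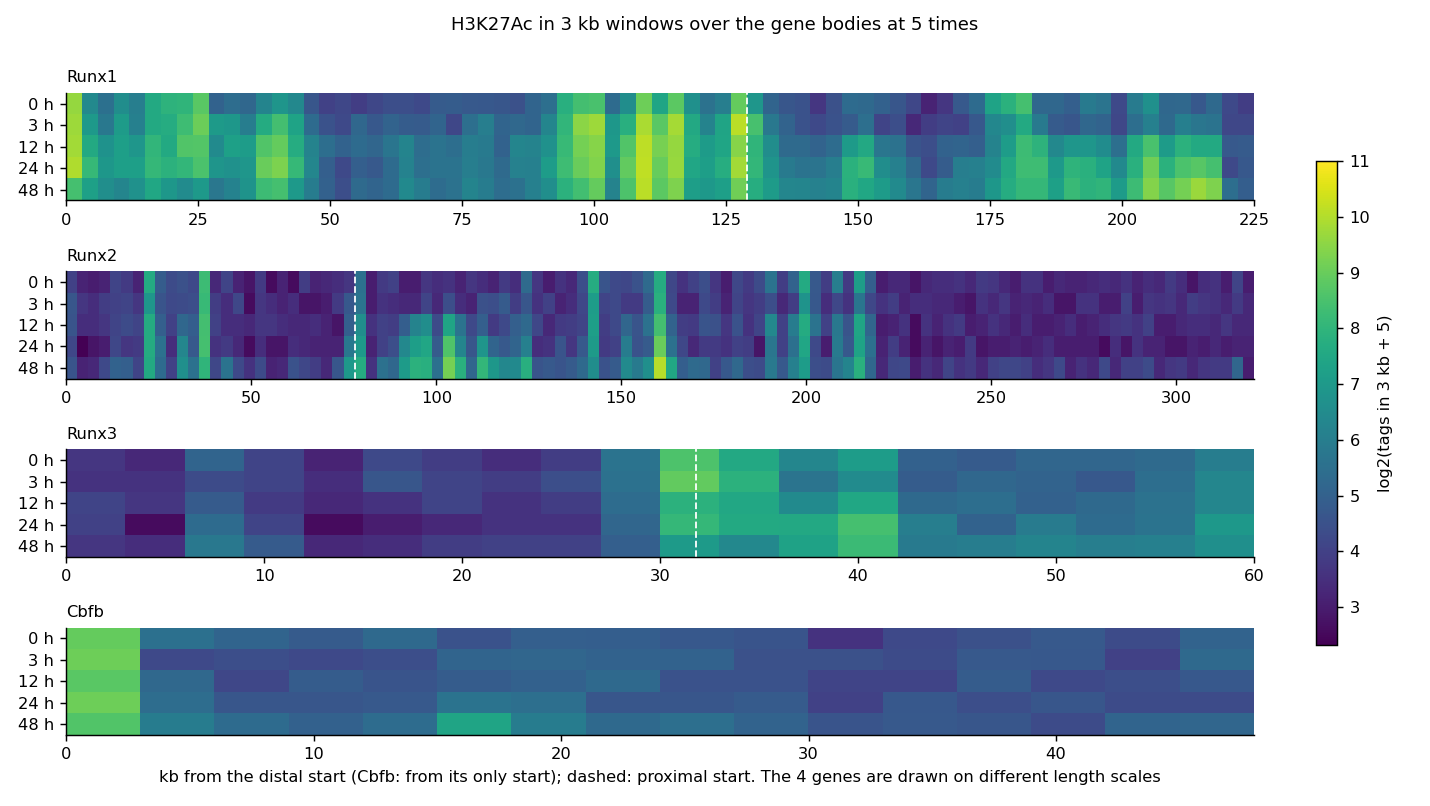
H3K27Ac in 3 kb windows over the 4 genes (horizontal axis: kb from the distal start, each gene on its own scale) at the 5 times (rows), coloured by log2(tags + 5). Dashed lines mark proximal starts. The numbers of enriched windows went from 38 to 70 of 75 in Runx1, from 11 to 34 of 107 in Runx2, from 7 to 11 of 20 in Runx3 and from 3 to 8 of 16 in Cbfb.

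In Cbfb, H3K27Ac rose at 1 intronic place. Of 16 windows, 3 were enriched at 0 hpi and 8 at 48 hpi, and of these 8, 2 rose (25%) and 0 fell, against 39.5% and 15.4% of all such body windows. The window at 15 to 18 kb (chr8:107709574-107712573) held 18, 30, 24, 45 and 161 tags (log2 change 2.85, interval 2.45 to 3.95), most of it gained after 24 hpi, and H3K4Me1 there went from 36 to 186 tags (2.22, interval 1.85 to 2.93). The next window, at 18 to 21 kb, went from 26 to 58 tags of H3K27Ac (1.02, interval 0.47 to 1.88). In the bodies of Runx1 and Cbfb, 0 windows were enriched for H3K27Me3 at any of the 5 times, where 13.2% to 14.5% of all body windows were.

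The starts most like each member over 15 values (3 marks at 5 times, Euclidean distance of log2 tags with 5 added) differed between the promoters of 1 gene. For Runx1 distal they were Arl6ip1 (distance 1.23), the second of 2 starts of Ccnd3 (1.28), the gene of cyclin D3, and the third of 3 starts of Mgat1 (1.29). For Runx1 proximal they were P4hb (1.07), the gene of protein disulfide isomerase, Prdx5 (1.25) and Trmt112 (1.26). For Runx2 proximal the nearest start lay farther away, at 1.64 (Gm10322), before the first start of Ccdc109a (1.65) and Ubtd2 (1.74). For Runx3 proximal they were Slc35c1 (1.27), Trove2 (1.35) and Papolg (1.4), and for Cbfb Ubxn1 (0.747), Fam53a (0.778) and Bad (0.805). For the distal starts of Runx2 and Runx3, which were without enrichment in H3K27Ac, the nearest were Mccc2 (1.02), Olfr99 (1.24) and Rab26 (1.27), and 4930542C12Rik (1.06), Srcrb4d (1.32) and Apof (1.43).

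Among genes whose products work with RUNX proteins, more fell than rose in H3K27Ac. Of 30 such genes, at the start that most transcripts share, 1 rose and 8 fell at least 2-fold, against 7.48% and 8.95% of all starts, and the median log2 change was -0.44 against -0.089 over all starts and -0.40 over 5 genes used by every cell. With libraries scaled to bins that kept enrichment at each time, 1 rose and 2 fell, against 11.6% and 5.16% of all starts, and the median was -0.13. The 1 rise was at Tal1, a transcription factor of blood stem cells and erythroid cells, from 101 to 259 tags (1.32). The largest falls were at Hes1, a repressor in Notch signalling, from 438 to 24 tags (-3.93), at Cdk6, the cyclin D-dependent kinase, from 655 to 204 (-1.66), and at Kmt2a, an H3K4 methyltransferase gene, from 507 to 206 (-1.28). Spi1, which encodes PU.1, held 728, 867, 853, 942 and 649 tags, a change of -0.16. In H3K4Me1, 0 of the 30 rose and 6 fell, against 4.72% and 10% of all starts, and in H3K27Me3 0 rose and 0 fell. Of the 6 starts that fell in H3K4Me1, only that of Sin3a (43 to 17 tags) was enriched for it at 0 hpi.

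Genes known as RUNX targets, most of them in blood cells and some in bone, included both rises and falls. Of 34 analysed here, 8 rose and 12 fell at least 2-fold in H3K27Ac, against 7.48% and 8.95% of all starts, with a median of -0.23 against -0.089. With libraries scaled to bins that kept enrichment at each time, 10 rose and 10 fell, against 11.6% and 5.16%, and the median was 0.13. The largest rises were at Itgax, the integrin CD11c, from 14 to 176 tags (3.25), at Spp1, osteopontin, from 8 to 106 (3.09), and at Mmp13, a collagenase, from 48 to 285 (2.45). The largest falls were at Myb, a factor of blood progenitors, from 765 to 104 (-2.82), at Rag1, which recombines antigen receptor genes, from 198 to 31 (-2.50), and at Cd79a, a chain of the B cell receptor, from 1232 to 310 (-1.97). Among the targets that fell were 8 that also stand in the list of B lineage markers, so that the lists overlap. In H3K4Me1, 4 of the 34 rose and 4 fell, against 4.72% and 10% of all starts, and in H3K27Me3 0 did either. Of the 4 starts that fell in H3K4Me1, only that of Itgal (61 to 17 tags) was enriched for it at 0 hpi. The rise at Ibsp ended below enrichment.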

How the data were processed

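ChIP-seq tags of 15 libraries (3 marks, 5 times, 1 library each) were assigned to groups by the mark and time in their labels. The authors aligned Illumina reads to mm9 with Eland or Bowtie without mismatches (versions not given in the sources used here) and removed identical and non-unique tags. The deposited files hold tag positions of 36 bp without strand, and the counts were made here from those positions. Since some deposited libraries still held repeated positions, 1 tag per position was kept, placed 18 bp from its start, on chromosomes 1 to 19 and X. Libraries were thinned at random to the smallest of their mark. Duplicates at different positions could not be recognised.

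Genes came from GENCODE vM1 on NCBIM37 (mm9). Starts of protein-coding transcripts within 1500 bp of each other were joined, and the position that most transcripts share was used. A 3 kb window counted as enriched at 27 tags or more for H3K4Me1 and at 34 or more for H3K27Ac and H3K27Me3, where the Poisson tail above the mean of 831369 mappable windows was below 0.001. A start rose or fell when its tags, with 5 added, differed by at least 2-fold between 0 and 48 hpi, and a body window also had to be enriched at 0 or 48 hpi. No test between times was made. Alternatives were other scalings, window sizes and positions, added tags, random draws, enrichment limits and the tags as deposited. The counting and calling steps were tested on simulated data. Python 3.11.15, numpy 2.4.6, scipy 1.17.1 and matplotlib 3.10.9 were used.

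The genes, and the lists of RUNX partner genes, RUNX target genes and markers of cell types, were chosen with earlier results of these data known. Named windows are, for each gene and mark, up to 3 of the largest rises and falls and the highest at 0 and at 48 hpi, named list genes are up to 3 of the largest rises and falls in H3K27Ac, and the 3 most alike starts are named for each member. Runs of windows, single 1 kb bins and windows that peaked between the ends were named after their values were seen. The same holds for Spi1, Ibsp, Actb, Klf1, Cd4, Cd8a, Cd247, Sin3a and Itgal. 1 gene of the target list was not analysed here, and 1 promoter sequence is not reported here.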

Additional observations from a re-analysis of the deposited data

How the results depend on the processing

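No paired analysis was possible because a given mark was profiled by only 1 library at any time. Of 608 values recomputed for 101 results under 10 alternatives, 519 stayed the same within counting error or, for counts, within 1.5 times, 89 moved, and 0 changes past 2-fold turned their sign. Of the changes under 2-fold, 11 values turned sign, 8 of them in H3K27Me3, 2 in H3K4Me1 (with background bins, Runx1 distal from -0.47 to 0.09 and Runx3 distal from -0.19 to 0.32) and 1 in H3K27Ac (with a window of 2 kb, Runx3 distal from -0.40 to 0.093). Scaling by bins without enrichment moved H3K4Me1 at 48 hpi by 0.59 and H3K27Ac at 24 hpi by 0.67 on the log2 scale, and scaling by bins with enrichment throughout moved H3K27Ac at 48 hpi by 0.36. For the differences below, the cause was not tested.

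The number of the 7 starts that fell in H3K4Me1, 3 as reported, was 1 when scaled by background bins (3.84% of all starts, against 10%), 1 without thinning (8.48%), 0 with a window of 6 kb (11.7%) and 2 with a window of 2 kb (9.8%). The number that rose in H3K27Ac, 1 as reported, was 2 with scaling to bins with enrichment throughout (11.6% of all starts, against 7.48%), without thinning (7.19%), with tags as deposited (7.52%) and with 1 tag added (13.6%), through the distal start of Runx2. The number that fell in H3K27Me3, 0 as reported, was 1 without thinning (1.13% of all starts, against 1.99%), with another random draw (1.97%), with tags as deposited (1.13%) and with 1 tag added (7.47%), through the distal start of Runx1, which held 8 and 3 tags. Of the body windows, 57 rose and 4 fell in H3K4Me1 as reported, against 86 and 1 when scaled by background bins, where the shares of all enriched body windows went from 28% and 10.9% to 41.9% and 3.76%, and 1 fell when at least 4-fold enrichment over the mean was required (10.4% of all). The number that fell in H3K27Ac, 7 as reported, was 4 with windows shifted by 1500 bp (15.4% of all, as before) and 3 with scaling to bins with enrichment throughout (10.8%). In H3K27Me3, 0 rose and 1 fell as reported, against 1 that rose when scaled by background bins (4.18% of all, against 2.24%) and 0 that fell when 4-fold enrichment was required (0.193%, against 0.664%). Depth limits the distal starts of Runx2 and Runx3, where H3K27Ac counts of 7 to 21 tags leave intervals wider than 2-fold. Scalings of the gene lists and of windows that peaked between the ends were added after seeing the data.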

Other observations

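2 further marker lists were examined at the same kind of start. Of 5 erythroid genes, 0 rose or fell at least 2-fold in H3K27Ac from 0 to 48 hpi, against 7.48% and 8.95% of all starts, with a median log2 change of -0.17, and 1 was enriched at 0 and at 48 hpi, namely Klf1, an erythroid transcription factor gene (103 and 91 tags). Of 5 genes used by every cell, 5 were enriched for H3K27Ac at 0 and at 48 hpi, 0 rose and 1 fell, against the same shares, namely Rpl13a, a ribosomal protein gene, which held 288, 214, 212, 170 and 91 tags at the 5 times. Their median log2 change was -0.40. Of the same 5 genes, 0 rose and 1 fell in H3K4Me1, against 4.72% and 10% of all starts. The fall was at Actb, the gene of β-actin, with 111, 95, 59, 17 and 18 tags, while H3K27Ac there went from 1164 to 882 tags.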
